A study of Bos grunniens and Bos grunniens x Bos taurus with 2 samples.

Results

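Meiotic recombination was examined through 5 genes, *SPO11*, *DMC1*, *MEIOB*, *RAD51AP2* and *MLH3*, of the 26961 features of the yak annotation. They were found by symbol, and each symbol belonged to 1 feature (ENSBGRG00000010307, ENSBGRG00000002636, ENSBGRG00000026058, ENSBGRG00000022307 and ENSBGRG00000008456, respectively). The data were 2 droplet libraries of thawed, dissociated testis, 1 from yak and 1 from cattle-yak, the hybrid of *Bos grunniens* and *Bos taurus*, both taken after sexual maturity. Cells carried unique molecular identifiers (UMIs), so that each count is 1 captured mRNA molecule, and levels are given as UMIs of a gene per 1000000 UMIs of all genes in a group of cells (CPM). The yak library held 11991 cells with a median of 2533 UMIs, and the cattle-yak library 8930 cells with a median of 3155. With 1 library for each kind of animal there was no replicate, no test was made, and every interval is at 95% and covers counting error only.

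In meiosis, homologous chromosomes exchange DNA. SPO11 cuts both strands of the DNA, and the cut ends are trimmed to single strands. DMC1, a meiosis-specific strand-exchange protein, coats these strands and carries them into the homologous chromosome, MEIOB binds single-stranded DNA together with SPATA22, and *RAD51AP2* is listed here with the strand-exchange genes. MLH3 acts in turning a subset of the joined molecules into crossovers, which happens in pachytene, after the cuts of leptotene and zygotene.

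All 5 genes were seen in both libraries, at very different depths. In the yak library 50 UMIs of *SPO11*, 1233 of *DMC1*, 1414 of *MEIOB*, 485 of *RAD51AP2* and 1738 of *MLH3* were counted. In the cattle-yak library the numbers were 17, 125, 283, 194 and 1339. Cells with *SPO11* were few, 40 in the yak and 16 in the cattle-yak library, and no cell held more than 3 of its UMIs. Germ-like clusters, named from marker lists after a clustering that left out the 5 genes and a wider list of recombination genes, held 1232 yak and 301 cattle-yak cells. The labels call the samples germ cells, but these were 11.1% and 3.95% of the cells kept, and T/NK-like (yak) or stromal-like (cattle-yak) cells were the most frequent named class. The germ-like clusters contained 100% of the yak UMIs of *SPO11*, 95.9% of those of *DMC1*, 94.3% of those of *MEIOB* and 92.6% of those of *RAD51AP2*, but 45.6% of those of *MLH3*. In the cattle-yak library these shares were 88.2%, 82.4%, 87.3%, 79.9% and 21.7%. Hence 4 of the 5 genes were counted mainly in germ cells, whereas *MLH3* was also counted in somatic cells.

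Germ cell types were available for 1127 yak barcodes, all of which were found in the library. They were spermatogonial stem cells (SSC, 84 cells), spermatogonia (SPG, 486), early spermatocytes (early-SPC, 72), late spermatocytes (late-SPC, 261) and spermatids (SPT, 224). The types come from the study, whose list of early-SPC markers holds *SPO11*, *DMC1*, *MEIOB* and *RAD51AP2*, and whose list of late-SPC markers holds *MLH3*. The types are therefore not independent of these genes, and the levels below describe the types. The SPC-like marker list stood at 7466 CPM in early-SPC and 4653 CPM in late-SPC, and the SPT-like list at 8144 CPM in SPT. In the SSC type the EC-like list (endothelial genes, 2058 CPM) exceeded the SPG-like list (634 CPM), and 506 of the typed SSC and SPG cells lay in clusters that received no name. In the SPG type the MC-like list (smooth muscle genes, 5698 CPM) exceeded the SPG-like list (1506 CPM). The MC-like list also stood at 2097 CPM in late-SPC and 3332 CPM in SPT, against 723 CPM in early-SPC. The part of RNA or cells of other types in the values below was not tested.

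*SPO11*, the gene of the cutting enzyme, was counted only in spermatocytes among the typed cells. Its 11 UMIs comprised 7 in early-SPC (24.6 CPM, 9.88 to 50.6) and 4 in late-SPC (8.40 CPM, 2.29 to 21.5). All 7 early-SPC cells with *SPO11* also held *MEIOB*, as did all 4 late-SPC cells. No UMI was found in SSC, SPG or SPT, where 3 UMIs would have been 19.6 CPM in SSC, 4.85 CPM in SPG and 11.04 CPM in SPT. Early-SPC stood 2.93 times above late-SPC with an interval of 0.744 to 13.6, so the 2 types were not distinguished at this depth.

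*DMC1*, the strand-exchange gene, had 2 separate highs. It stood at 232 CPM (179 to 295, 66 UMIs) in early-SPC, at 14.7 CPM (5.91 to 30.3, 7 UMIs) in late-SPC and again at 177 CPM (130 to 234, 48 UMIs) in SPT. Early-SPC was 15.8 times above late-SPC (7.24 to 40.7), while early-SPC and SPT did not differ beyond counting error. With every cell weighted equally the log2 ratio of early-SPC to late-SPC was 2.48 in place of 3.89. SPG held 21.0 CPM (11.2 to 35.9) and SSC a single UMI. The UMIs in SPT came from 38 of 224 cells (16.96%, 12.3% to 22.5%), with at most 4 in a cell, so that the level did not rest on a single cell. After thinning to 1000 UMIs, 19.4% of 98 SPT cells had a UMI of *DMC1*, with 126 shallower cells left out. The share in T/NK-like cells, which should lack the gene, was 0.168% of 3565 cells (median 1941 UMIs before thinning, against 906 in SPT).

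*MEIOB*, the gene of the single-strand binding protein, was highest in early-SPC and lower in late-SPC. Its level was 590.0 CPM (504 to 686, 168 UMIs) in early-SPC and 159.6 CPM (126 to 200.0, 76 UMIs) in late-SPC, 3.70 times lower (2.80 to 4.91). In SPT it was 7.36 CPM, in SPG 8.08 CPM and in SSC 6.53 CPM, levels of 1 to 5 UMIs whose intervals overlap. The late-SPC type joined 2 of the clusters of the study, and these were not alike. *MEIOB* stood at 256 CPM (187 to 341) in cluster 7 (65 cells) and at 101 CPM (68.3 to 144) in cluster 3 (196 cells). Thinned to 1000 UMIs, 40.8% of early-SPC and 14.6% of late-SPC cells had a UMI of *MEIOB*, against 0.0842% of T/NK-like cells.

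*RAD51AP2* marked early-SPC most sharply. Of its 213 UMIs in typed cells, 211 were in early-SPC (741 CPM, 644 to 848), 1 in late-SPC and 1 in SPG. The ratio of early-SPC to late-SPC was 353, with an interval of 62.7 to 14004 that is wide because late-SPC held 1 UMI. A total of 45 of 72 early-SPC cells (62.5%) had at least 1 UMI, and the highest cell had 15.

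*MLH3*, the crossover gene, ran opposite to *DMC1*, *MEIOB* and *RAD51AP2* between early-SPC and late-SPC. No UMI was found in the 72 early-SPC cells, where 3 UMIs would have been 10.5 CPM or 4.17% of cells with a UMI (exact upper limits of 12.95 CPM and 4.99%), against 73.5 CPM (51.2 to 102, 35 UMIs) in late-SPC. Late-SPC was at least 6.98-fold higher with 3 UMIs over the early-SPC group taken as the floor, and the exact interval of the ratio begins at 5.38. In SPG *MLH3* stood at 25.9 CPM (14.8 to 42.0), which overlaps its level of 20.6 CPM in the somatic cells of the same library. Both late-SPC clusters held it, at 117 CPM (72.3 to 179) in cluster 7 and 47.2 CPM (25.8 to 79.2) in cluster 3.

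**Figure D1:**
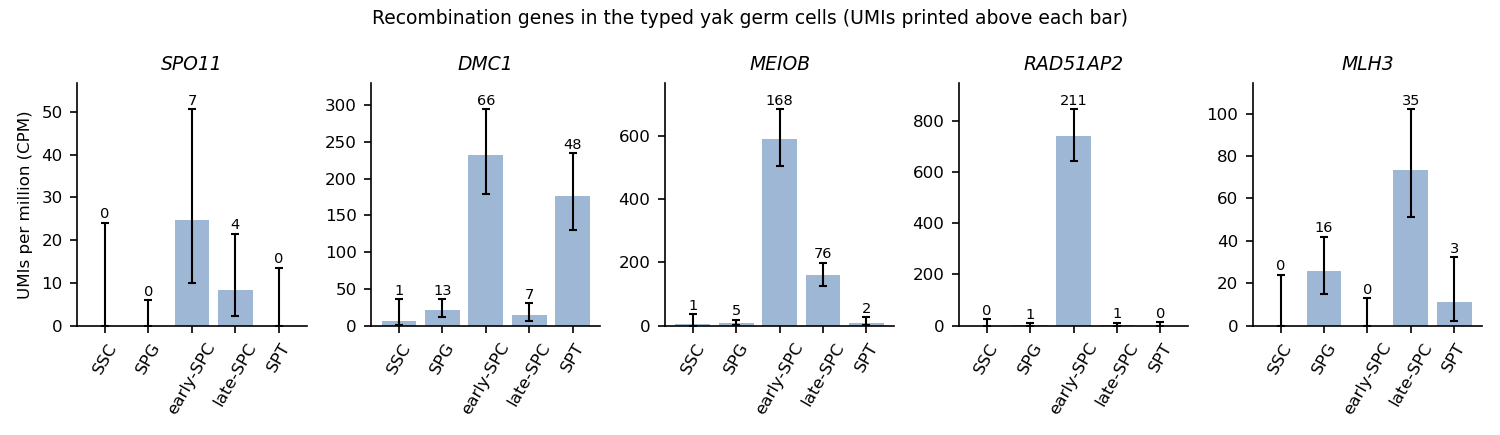
Bars give the level of each gene (y axis, CPM, a separate scale per panel) in the 5 yak germ cell types (x axis); error bars are exact Poisson 95% intervals and the number above each bar is its UMI count. *SPO11*, *MEIOB* and *RAD51AP2* are highest in early-SPC, *DMC1* is high in early-SPC and SPT, and *MLH3* is highest in late-SPC with 0 UMIs in early-SPC.

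In the order of levels over the 5 types, few neighbours stood apart beyond counting error. For *RAD51AP2* this was early-SPC over late-SPC, for *MEIOB* also late-SPC over SPG, for *DMC1* SPT over SPG, and for *MLH3* late-SPC over SPG. All other neighbouring pairs, including all 4 of *SPO11*, overlapped.

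The typed cells hold a small part of these transcripts. They contain 22% of the yak UMIs of *SPO11*, 10.9% of those of *DMC1*, 17.8% of those of *MEIOB*, 43.9% of those of *RAD51AP2* and 3.11% of those of *MLH3*. The study set aside cells above the mean plus 2 standard deviations of UMIs or genes. Limits of this form were recomputed here over all cells of the library. The study kept fewer cells than they would leave, so its own cell set was not reproduced. Of the 1232 yak germ-like cells, 410 lay above the recomputed limits, with a median of 26566.5 UMIs, against 1405.5 UMIs in the germ-like cells within them. In these 410 deep cells *MLH3* stood at 52.1 CPM (48.3 to 56.1, 694 UMIs), 1.74 times the level of the typed cells (1.32 to 2.34). *RAD51AP2* stood at 5.48 CPM (4.30 to 6.89) in the deep cells against 118 CPM in the typed cells, 21.5 times lower (16.4 to 28.5). *MEIOB* was 2.16 times lower (1.87 to 2.48) at 64.8 CPM, and *SPO11*, at 2.102 CPM, stood at 0.345 times the typed level (0.166 to 0.768). *DMC1* was at 64.2 CPM in the deep cells and 74.8 CPM in the typed cells, a difference within counting error. With every cell weighted equally the log2 ratios of deep to typed cells went from -4.20 to -2.06 for *RAD51AP2*, from -1.10 to -0.32 for *MEIOB* and from -1.19 to 0.13 for *SPO11*, so that the direction of *SPO11* depended on the weights. The 2 sets differ in makeup. Deep cells come from germ-like clusters only, while the typed cells include 76 SSC and 430 SPG cells of a cluster without a name. Of the 213 typed UMIs of *RAD51AP2*, 211 were in early-SPC. The part of makeup in these ratios was not tested.

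To follow the genes at a finer scale, the yak germ-like cells were re-clustered, again without the 5 genes, into 17 groups. A group was then chosen for each of 4 stage genes as the one with the highest level of it: *SYCP3* (synaptonemal complex, 56 cells), *PIWIL1* (the pachytene piRNA pathway, 97 cells), *CCNA1* (the meiotic cyclin of late spermatocytes, 64 cells) and *HMGB4* (an HMG-box protein of round spermatids, 73 cells). The germ-like cluster with the highest *DMRT1*, a spermatogonial transcription factor, served as the fifth group (266 cells). It comes from the first clustering, so its cells also lie in the re-clustered groups, and the number shared with each was not counted. These 5 groups, and *DMRT1*, *CCNA1* and *HMGB4* as stage genes, were chosen after the data had been seen. The SYCP3-led group shared 36 cells with the typed early-SPC and none with the other types, the PIWIL1-led group 57 with late-SPC, the CCNA1-led group 1 with late-SPC and the HMGB4-led group 3 with SPT. The deep cells were spread unevenly over these groups. They made up 2 of the 56 SYCP3-led cells but 60 of the 64 CCNA1-led cells and 45 of the 73 HMGB4-led cells.

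*SPO11* stood at 25.9 CPM (13.8 to 44.3, 13 UMIs) in SYCP3-led and 9.59 CPM (5.36 to 15.8, 15 UMIs) in PIWIL1-led cells, 2.70 times lower (1.18 to 6.08). When every cell was weighted equally this difference was lost, with a log2 ratio of -0.037. In CCNA1-led and HMGB4-led cells 0 UMIs were counted, at limits of 0.932 and 1.65 CPM. PIWIL1-led cells were at least 10.3-fold above CCNA1-led cells by the same floor, with an exact interval that begins at 7.38 and a log2 ratio that went from 3.40 to 1.90 at a Leiden resolution of 2. *SPO11* was also counted in DMRT1-led cells, at 3.57 CPM (2.08 to 5.72, 17 UMIs). Among the 13 re-clustered groups not chosen for a stage gene, its highest level was in 1 with *UPK3A*, *MORC1* and *PIWIL4* among its leading genes, where *UCHL1*, a spermatogonial gene, stood at 1527 CPM. That group held 13 UMIs in 8 of 72 cells (8.37 CPM, 4.46 to 14.3). It can share cells with the DMRT1-led cluster, so its 13 UMIs and the 17 of DMRT1-led cells are not separate observations.

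The pair of *DMC1* highs was also present in these groups of the same library, with far more counts. The first high is not a separate observation, since 36 of the 56 SYCP3-led cells are typed early-SPC. For the second, 3 of the 73 HMGB4-led cells are typed SPT, and the others are further cells of the same library. *DMC1* stood at 24.6 CPM (20.3 to 29.4) in DMRT1-led, 261 CPM (218 to 310) in SYCP3-led, 11.5 CPM (6.82 to 18.2) in PIWIL1-led and 3.73 CPM (1.93 to 6.51) in CCNA1-led cells, and at 285 CPM (261 to 311) in HMGB4-led cells. The HMGB4-led level was 76.4 times the CCNA1-led level (43.4 to 149), and 1.09 times the SYCP3-led level (0.9003 to 1.33). The order of the low groups was not stable, since at a Leiden resolution of 2 the log2 ratio of PIWIL1-led to CCNA1-led cells turned from 1.40 to -1.43, while that of SYCP3-led to PIWIL1-led cells went from 4.39 to 8.12. In HMGB4-led cells (median 24924 UMIs) 70 of 73 held the transcript before thinning (95.9%), with 518 UMIs in all and up to 28 in a cell. After thinning as for SPT, 26 of the 73 cells held it, so the unthinned share is not comparable with that of the shallower SPT cells. The germ-like cluster with the most SPT-like markers, of 259 cells, held 811 of the 1233 yak UMIs of *DMC1*. In its 94 deep cells the level was 192 CPM (177 to 207), and in its 165 cells within the recomputed limits it was 264 CPM (223 to 310).

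The other genes of the set and *SYCP3* were far lower in HMGB4-led than in SYCP3-led cells or, for *MLH3*, low in both. *SYCP3* went from 1804 CPM in SYCP3-led to 0 UMIs in HMGB4-led cells, *RAD51AP2* from 685 to 3.85 CPM, *MEIOB* from 584 to 8.25 CPM and *SPO11* from 25.9 CPM to 0 UMIs. Not all recombination genes were low there, since *MND1* stood at 396 and 274 CPM, *HSF2BP* at 205 and 162 CPM and *PRR19* at 23.9 and 275 CPM. *HMGB4* itself stood at 4330 CPM and *TNP1*, a spermatid transition protein, at 938 CPM in this group. In somatic cells of the library *DMC1* was at 0.628 CPM (0.372 to 0.992, 18 UMIs in 7551 cells).

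*MEIOB* was lower in steps over the spermatocyte groups. It was 584 CPM (519 to 654) in SYCP3-led, 239.6 CPM (216 to 265) in PIWIL1-led and 126 CPM (114 to 139) in CCNA1-led cells, where all 64 cells held it. Each step was larger than counting error, 2.43 times (2.08 to 2.84) and then 1.90 times (1.65 to 2.19). The size of the steps depended on the borders of the groups, with a log2 ratio of the first step of 1.28 here, 0.38 at a Leiden resolution of 0.5 and 2.14 at 2, and of the second step of 0.92 here and 0.20 at 2. HMGB4-led cells were a further 15.3 times lower (9.16 to 27.6), a level whose interval overlaps that of DMRT1-led cells (6.72 CPM).

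*RAD51AP2* was highest in SYCP3-led cells, which held 344 of its 449 UMIs in yak germ-like cells. It stood there at 685 CPM (615 to 761, 344 UMIs in 46 of 56 cells), 268 times the level of PIWIL1-led cells (104 to 989), which held 4 UMIs. The lower levels were 5.25 CPM in DMRT1-led, 2.56 CPM in PIWIL1-led and 0.621 CPM in CCNA1-led cells. Some groups not chosen for a stage gene stood above these. *RAD51AP2* was at 30.3 CPM in a group led by *ROBO4*, 17.7 CPM in a group led by *TRDC* and 14.2 CPM in the group with *UPK3A*. A group led by *REC8*, a meiotic cohesin subunit, and *CTCFL* (61 cells, 20 of them typed early-SPC) held *UCHL1* at 1011 CPM and *SYCP3* at 538 CPM, between the levels of DMRT1-led and SYCP3-led cells. It held *RAD51AP2* at 53.8 CPM (36.0 to 77.3), *MEIOB* at 59.4 CPM (40.6 to 83.8), *DMC1* at 85.3 CPM (62.5 to 114) and *SPO11* at 7.42 CPM (4 UMIs). The levels of these 4 genes there lay between those of DMRT1-led and SYCP3-led cells. The REC8-led group can also share cells with the DMRT1-led cluster.

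*MLH3* reached 161 CPM (142 to 182, 252 UMIs) in PIWIL1-led cells, its highest level of the 5 groups. It was 20.2 times lower (7.80 to 74.8) in SYCP3-led cells, at 7.97 CPM (4 UMIs), and 1.92 times lower (1.61 to 2.29) in CCNA1-led cells, at 83.9 CPM (74.2 to 94.5, 270 UMIs). DMRT1-led cells stood at 30.2 CPM (25.5 to 35.6). The lowest level, 2.75 CPM (0.893 to 6.42), was in HMGB4-led cells, 30.5 times below CCNA1-led cells (12.9 to 94.7). CCNA1-led cells alone held 270 UMIs of *MLH3*, whereas all typed cells together held 54.

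**Figure D2:**
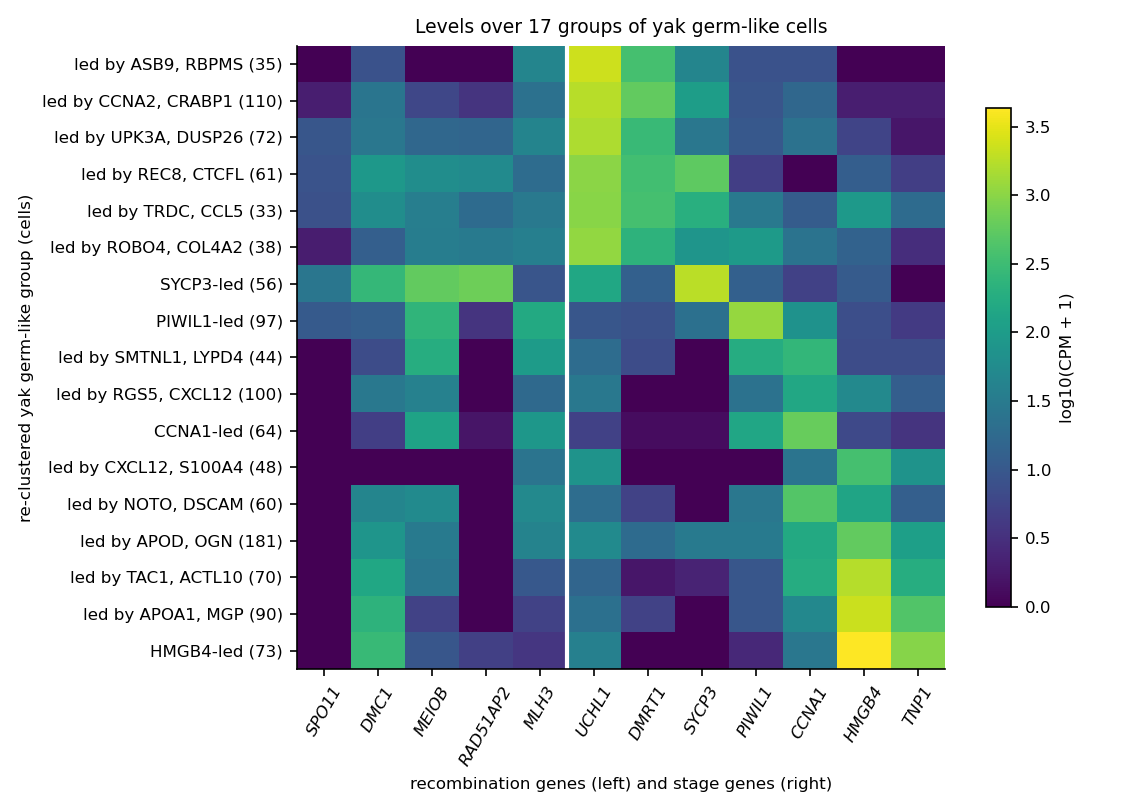
Colour gives log10(CPM + 1) of the 5 recombination genes (left of the white line) and of 7 stage genes (right) in the 17 re-clustered groups of yak germ-like cells (rows, number of cells in brackets), ordered from top to bottom by the relative levels of *UCHL1*, *SYCP3*, *PIWIL1*, *CCNA1* and *HMGB4*. *RAD51AP2* is brightest in the SYCP3-led row (685 CPM), *MLH3* in the PIWIL1-led row (161 CPM), and *DMC1* in the SYCP3-led and HMGB4-led rows (261 and 285 CPM).

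Some of the 17 groups were led by genes of other cells, among them *APOD* and *ACTA2* (181 cells), *RGS5* (100 cells), *ROBO4* and *COL4A2* (38 cells) and *TRDC* and *CCL5* (33 cells). Many typed cells lay in such groups. Of the 261 late-SPC cells, 71 were in the APOD-led and 78 in the RGS5-led group. Of the 224 SPT cells, 91 were in the APOD-led, 2 in the RGS5-led and 5 in the TRDC-led group. A further 58 SPT cells were in a group with *APOA1* and *MGP* among its leading genes (90 cells). Another 29 were in a group with *CXCL12* and *VIM* among its leading genes (48 cells). The late-SPC and SPT levels above include these cells. The MC-like list reached 5179 CPM in the APOD-led, 5199 CPM in the RGS5-led, 4427 CPM in the CXCL12-led and 1717 CPM in the APOA1-led group. *DMC1* stood at 76.9 CPM in the APOD-led, 223 CPM in the APOA1-led and 0 CPM in the CXCL12-led group. In the 5 stage groups the MC-like list stood at 199 to 717 CPM. In those 5 groups the epithelial-like list stood at 557 CPM in PIWIL1-led, 440 CPM in SYCP3-led and 298 CPM in CCNA1-led cells and the LC-like list (Leydig cell genes) at 283 CPM in DMRT1-led cells, and the other somatic lists stood at most at 240.4 CPM. The part of other cells in the levels of all these groups was not tested.

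Somatic cells give the background of each gene. In 7551 named somatic yak cells 0 UMIs of *SPO11* were counted, and *DMC1*, *MEIOB* and *RAD51AP2* stood at 0.628, 1.33 and 0.697 CPM. *MLH3* was at 20.6 CPM (18.9 to 22.3, 590 UMIs). By class it ranged from 12.2 CPM in macrophage-like cells and 13.2 CPM in EC-like cells to 33.2 CPM in MC-like and 36.1 CPM in stromal-like cells. In the cattle-yak library stromal-like cells reached 57.2 CPM (51.9 to 62.8). The interval of the 7.97 CPM in SYCP3-led spermatocytes (2.17 to 20.4) overlaps that of the somatic cells, whereas the 161 CPM of PIWIL1-led cells lay above it.

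The genes were often seen in the same cell in early-SPC. There 57 of 72 cells held at least 1 of the 5 genes, 39 held at least 2 (54.2%) and 24 at least 3. Of 46 cells with *MEIOB*, 35 also held *RAD51AP2* and 26 also held *DMC1*. In late-SPC 17 of 261 cells held at least 2 of the genes, and 14 of these held *MEIOB* together with *MLH3*. Thinned to 1000 UMIs, 13 of 49 early-SPC cells (26.5%) and 2 of 164 late-SPC cells (1.22%) held at least 2. In the thinned early-SPC *MEIOB* and *RAD51AP2* were in 20 cells each and together in 10, and 0 thinned late-SPC cells held *MEIOB* with *MLH3*. The number of shared cells expected from the single genes was not computed. Over all yak germ-like cells 32 of 953 (3.36%) held at least 2 after thinning. In CCNA1-led cells, the deepest of the groups, 60 of 64 cells held *MEIOB* and *MLH3* together before thinning, but 2 of 64 after it. In HMGB4-led cells 70 of 73 cells held *DMC1*, and 14 held *DMC1* with *MEIOB*. After thinning these counts were 26 and 0. In T/NK-like cells 1 of 3760 held at least 2, and 0 of 3565 after thinning.

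The cattle-yak germ-like cells comprised a DMRT1-led cluster of 235 cells and a cluster of 66 cells with 17 SPC-like markers. Re-clustering by the same steps gave a SYCP3-led group of 35 cells and a PIWIL1-led group of 16 cells. No group met the *CCNA1* or *HMGB4* rule, and *HMGB4*, *ACRV1* and *TNP1* had 0 UMIs in all germ-like cells. Taken over all germ-like cells, *DMC1* was at 74.5 CPM in the yak and 16.2 CPM in the cattle-yak library, 4.60 times higher (3.76 to 5.69), and *MEIOB* at 83.9 against 38.8 CPM, 2.16 times higher (1.89 to 2.49). *SPO11*, *RAD51AP2* and *MLH3* differed within counting error. This comparison sets libraries of different germ cell makeup side by side. With cells above mean plus 2 standard deviations of log10 values left out, the log2 ratio of *MEIOB* turned from 1.09 to -0.33 and that of *DMC1* went from 2.14 to 0.65.

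The SYCP3-led groups could be set side by side for all 5 genes. In the cattle-yak *RAD51AP2* and *MEIOB* stood at 414 CPM each (345 to 493), *DMC1* at 135 CPM (96.7 to 183), *SPO11* at 23.0 CPM (9.25 to 47.4) and *MLH3* at 9.86 CPM (2.03 to 28.8). The yak level was 1.94 times higher for *DMC1* (1.35 to 2.82), 1.65 times for *RAD51AP2* (1.35 to 2.05) and 1.41 times for *MEIOB* (1.14 to 1.75). For *SPO11* the ratio was 1.13 (0.417 to 3.33) and for *MLH3* 0.808 (0.137 to 5.52), both within counting error. *SYCP3* itself was 1804 CPM in the yak and 1239 CPM in the cattle-yak group. Of the spermatogonial genes, *UCHL1* was at 145 and 227 CPM and *DMRT1* at 11.9 and 42.7 CPM (6 and 13 UMIs). The groups so differed in their stage genes, and the part of this in the ratios was not tested. At a Leiden resolution of 0.5, where the yak group grew to 119 cells, the log2 ratios of *MEIOB* and *RAD51AP2* were -0.43 and -0.26, so that their direction depended on the borders of the group, and that of *DMC1* went from 0.95 to 0.27. With 1 library each, library and hybrid status cannot be told apart.

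In the PIWIL1-led groups 2 of the 5 genes had enough UMIs to compare, and neither differed beyond counting error. *MEIOB* was at 239.6 CPM in the yak and 233 CPM (179 to 297) in the cattle-yak, a ratio of 1.03 (0.789 to 1.37). *MLH3* was at 161 CPM in the yak and 207 CPM (157 to 268) in the cattle-yak, a ratio of 0.778 (0.581 to 1.06). *SPO11*, *DMC1* and *RAD51AP2* rested on 3, 2 and 0 UMIs in the 16 cattle-yak cells, too few to compare. The groups differed in their stage genes, with *PIWIL1* at 1157 CPM in the yak and 599 CPM in the cattle-yak and *PGK2* at 239.6 and 87.2 CPM. At a Leiden resolution of 2, where the yak group shrank to 70 cells, the log2 ratios of *MEIOB* and *MLH3* were -0.63 and -0.79, so that both genes then lay lower in the yak. The change from SYCP3-led to PIWIL1-led cells within the cattle-yak library was 18.5-fold lower for *DMC1* (4.82 to 158), at least 38.0-fold lower for *RAD51AP2* by the floor of 3 UMIs, with an exact interval that begins at 30.4, and 21.0-fold higher for *MLH3* (6.84 to 105), as in the yak in direction.

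In DMRT1-led cells 3 genes were higher in the yak. *SPO11* stood at 3.57 against 0.533 CPM (17 and 3 UMIs), 6.70 times (1.94 to 35.7), *RAD51AP2* at 5.25 against 1.60 CPM, 3.28 times (1.48 to 8.00), and *DMC1* at 24.6 against 9.41 CPM, 2.61 times (1.87 to 3.68). *MEIOB* did not differ beyond counting error (6.72 and 5.86 CPM). *MLH3* was lower in the yak, at 30.2 against 39.1 CPM, a ratio of 0.774 (0.623 to 0.959). In somatic cells *MLH3* was also lower in the yak (20.6 against 32.3 CPM). The somatic sets differ in makeup, since stromal-like cells, where *MLH3* was high, were 7.90% of the yak and 37.7% of the cattle-yak cells kept. The part of this makeup was not tested. All 17 yak UMIs of *SPO11* in DMRT1-led cells came from 12 of the 185 deep cells. At a Leiden resolution of 2, with 159 yak and 52 cattle-yak cells, the log2 ratio turned from 1.58 to -0.054 for *SPO11* and from 1.27 to -0.67 for *RAD51AP2*, that of *MEIOB* went from 0.17 to -1.70, and that of *DMC1* fell from 1.30 to 0.70. Of the genes higher in the yak, *DMC1* alone kept its direction under every setting run. The DMRT1-led groups also differed in their stage genes. In the yak and the cattle-yak *SYCP3* was at 72.4 and 31.1 CPM, *REC8* at 45.4 and 24.7 CPM and *CTCFL* at 103 and 41.5 CPM. *DMRT1* was at 430 and 381 CPM, and *UCHL1* was lower in the yak, at 1651 and 2104 CPM. The part of this in the ratios was not tested.

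**Figure D3:**
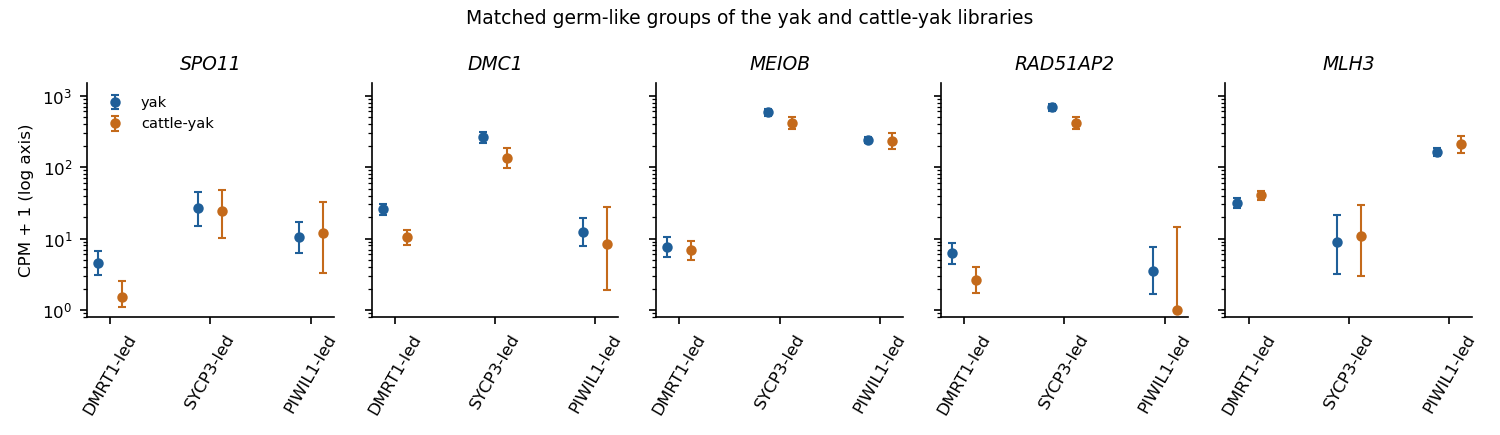
Points give CPM + 1 (log axis) of each gene in the DMRT1-led, SYCP3-led and PIWIL1-led groups of the yak (blue) and cattle-yak (orange) libraries, with exact Poisson 95% intervals. *DMC1* and *RAD51AP2* lie lower in the cattle-yak in the first 2 groups (for *RAD51AP2* not at every clustering resolution), while *MEIOB* in the PIWIL1-led groups (239.6 and 233 CPM) and *SPO11* in the SYCP3-led groups (25.9 and 23.0 CPM) overlap.

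A wider list of recombination genes shows where the 5 stand. Of 93 names searched, alternative names included, 60 were found in the annotation, in 6 roles. A gene was called higher or lower at a log2 ratio of CPM + 1 past 1 with at least 10 UMIs over both groups. From early-SPC to late-SPC, 27 of 45 measured list genes were higher in early-SPC and 9 lower, beside 27.0% and 40.7% of 6825 genes in all. Their median log2 ratio was 1.97, against -0.44 over all genes. Without the 5 genes, which are on the list, 23 of 40 were higher and 8 lower. In SYCP3-led against PIWIL1-led cells 30 of 53 were higher and 13 lower, beside 25.7% and 38.9% of 8203 genes, with medians of 1.10 and -0.35. Without the 5 genes 26 of 48 were higher and 12 lower.

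In the role listed as break formation, 4 of 5 measured genes were higher in SYCP3-led cells, beside 25.7% of all measured genes. The 4 include *SPO11*, whose log2 ratio was -0.037 with every cell weighted equally. *ZCWPW1*, a histone methylation reader that the list places in this role, stood at 2356 CPM in SYCP3-led and 47.3 CPM in PIWIL1-led cells. *ANKRD31* was at 834 and 222 CPM, and *MEI1* at 193 and 27.5 CPM. *REC114*, a partner of the cutting complex, ran the other way, at 85.6 and 272 CPM. In end resection *BRCA1* was at 846 and 161 CPM and *RBBP8* at 532 and 60.1 CPM, among 4 of 6 genes higher.

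In strand exchange 9 of 17 genes were higher and 5 lower, beside 25.7% and 38.9% of all measured genes. The share lower was so under that over all genes. *SPATA22*, the partner of MEIOB, stood at 799 CPM in SYCP3-led, 371 CPM in PIWIL1-led and 64.0 CPM in CCNA1-led cells, and at 91.5 CPM in DMRT1-led cells, where *MEIOB* was at 6.72 CPM. In the cattle-yak it was at 667 CPM in SYCP3-led and 694 CPM in PIWIL1-led cells, while *MEIOB* was at 414 and 233 CPM. In the yak SYCP3-led, PIWIL1-led and CCNA1-led groups *BRCA2* was at 663, 203 and 35.4 CPM. *MND1*, whose product works with DMC1, was at 396, 194 and 479.8 CPM in these yak groups. It so did not share the low of *DMC1* in CCNA1-led cells. *HSF2BP* was at 205, 236 and 135 CPM in the same yak groups.

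In crossover formation 7 of 12 genes were higher in SYCP3-led cells and 4, *MLH3* included, lower. Over all measured genes the shares were 25.7% and 38.9%, so the share lower in this role was not above that of all genes. *TEX11* stood at 1267 and 71.6 CPM, *HFM1* at 584 and 47.9 CPM and *C1orf146* at 339 and 98.4 CPM. *PRR19* was at 23.9 and 137 CPM, and at 275 CPM in HMGB4-led cells. In break signalling 5 of 9 were higher, among them *TRIP13* (458 and 14.1 CPM) and *ATM* (370.4 and 48.6 CPM). In crossover limitation 1 of 4 was higher and 1 lower, neither above the share over all genes.

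In HMGB4-led against CCNA1-led cells 7 of 42 list genes were higher and 23 lower, beside 30.3% and 41.0% of 10392 genes. Without the 5 genes 6 of 39 were higher and 21 lower. *DMC1* had the highest log2 ratio of the 42, 5.92, ahead of *NBN* with 3.43 and *TRIP13* with 3.00. *DMC1* was the only gene among the 13 measured strand-exchange genes that was higher. *MLH3* had the lowest, -4.50, and *MEIOB* stood at -3.78.

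Between yak and cattle-yak SYCP3-led cells 5 of 43 list genes were higher in the yak and 2 lower, beside 9.01% and 10.6% of 5763 genes. The share higher was close to that background, and the share lower, on 2 genes, was under it. None of the 5 genes of the set was called, and *MLH3* had too few UMIs. The crossover gene *HFM1* (584 and 237 CPM, log2 ratio 1.30) was among the 5. In PIWIL1-led cells 5 of 47 were higher and 4 lower, beside 15.3% and 8.43% of 7624 genes.

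**Figure D4:**
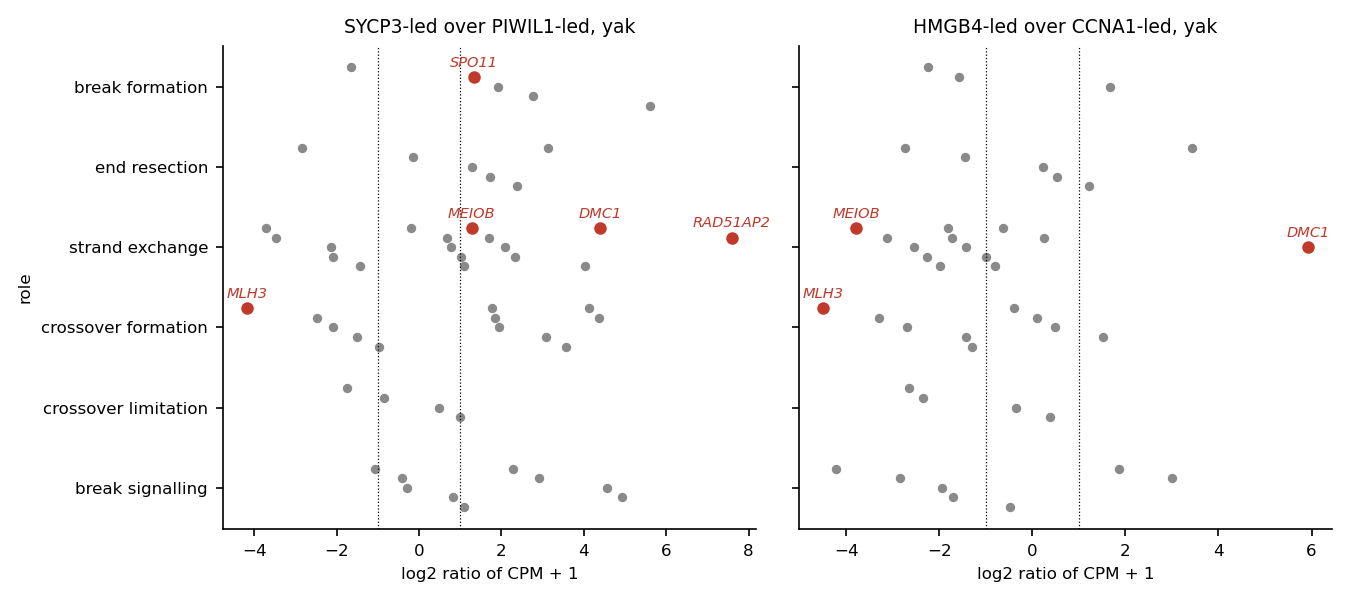
Each point is a recombination gene with at least 10 UMIs over both groups. It is placed by its log2 ratio of CPM + 1 (x axis) and role (y axis). The comparisons are SYCP3-led over PIWIL1-led (left) and HMGB4-led over CCNA1-led yak cells (right). Dotted lines mark log2 ratios of -1 and 1. The 5 genes are in red. On the right *SPO11* and *RAD51AP2* had fewer than 10 UMIs and are not drawn. *RAD51AP2* is farthest right on the left (7.59) and *DMC1* on the right (5.92), with *MLH3* farthest left in both panels (-4.18 and -4.50).

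Genes with a pattern like each member were sought by Pearson correlation of log2(CPM + 1) over the 7 germ cell clusters of the study, among 5250 genes with at least 50 UMIs in typed cells. Over so few clusters many genes reach a high value, and all clusters share 1 library, so these are descriptions. For *DMC1* they were *TMEM30A*, *COQ7* and *UAP1* (r of 0.971, 0.971 and 0.965). *MEIOB* was matched by *SUPT20H* and *PTPN2* (0.990 and 0.985), *RAD51AP2* by *NOP14* and *APMAP* (0.979 each) and *MLH3* by *CTNNBL1* and *FABP5* (0.979 and 0.971), each with 1 further gene that has no symbol. *SPO11* had too few UMIs in typed cells. The same measure over the 17 re-clustered groups, added after the data had been seen, compared 11149 genes. The most alike genes were *SNPH* and *HFM1* for *SPO11* (0.911 and 0.883), *ORMDL1* for *DMC1* (0.916), *AP3M1* for *MEIOB* (0.940), *SULT4A1* and *TMEM40* for *RAD51AP2* (0.928 each) and *ANKS4B* for *MLH3* (0.930). Between the members over these 17 groups, *SPO11* and *RAD51AP2* were most alike (0.847) and *DMC1* and *MLH3* least (-0.690). The ranking depended on the basis. Over the 7 clusters of the study *SPO11*, with few UMIs, and *MEIOB* were most alike (0.866), and *RAD51AP2* and *MLH3* least (-0.406).

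Of the genes next to the members on the chromosome, those found by symbol in the count table were also read, since an extended transcript of a neighbour can be counted on a gene. In the assembly Bosgru_T2T1.0, *DMC1* lies between *DDX17* and *FAM227A*, *MEIOB* between *HS3ST6* and *HAGH*, *RAD51AP2* between *CYRIA* and *VSNL1*, *MLH3* between *ACYP1* and *EIF2B2*, and *SPO11* between *BMP7* and *RAE1*. In the HMGB4-led group, where *DMC1* was at 285 CPM, *DDX17* was at 24.8 CPM, its lowest level of the 5 stage groups. *HAGH* was at 847 CPM in PIWIL1-led and 1151 CPM in CCNA1-led cells, where *MEIOB* was also counted, but at 19.9 CPM in SYCP3-led cells, where *MEIOB* was highest. *ACYP1* was high where *MLH3* was, at 5.97 CPM in SYCP3-led, 188 CPM in PIWIL1-led, 147 CPM in CCNA1-led and 17.6 CPM in HMGB4-led cells. *EIF2B2* did not exceed 5.11 CPM in these groups. *FAM227A*, *CYRIA* and *RAE1* were not matched by symbol and were not read. *SPO11* and *MLH3* each overlap 1 long non-coding gene in that assembly, and counts of overlapping genes are uncertain. The part of neighbouring transcripts in these levels was not tested.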

How the data were processed

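Testis tissue of yak and cattle-yak, 1 library each, had been frozen, dissociated and run on a 10x droplet platform. The deposited values are raw UMI counts per gene and cell that the authors made with Cell Ranger (5.0.0 per the file headers, 2.1.1 per the submitters' processing notes) on a yak genome (BosGru3.0). Germ cell types of 1127 yak barcodes were taken from the study's supplement, and only the barcode, cluster and type were used.

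Cells with at most 30% mitochondrial UMIs were kept (11114 yak, 7620 cattle-yak). Each library was scaled to 10000 UMIs per cell and clustered with scanpy 1.11.5 and igraph 0.11.9 (2000 variable genes, 30 components, 15 neighbours, Leiden resolution 1, seed 0) without the recombination genes. A cluster was named from at least 3 markers with a log2 ratio of at least 1, in at least 10% of its cells. Germ-like cells were re-clustered in the same way with 20 components. A group for a stage gene needed 10 cells and 100 CPM. Deep cells lay above the mean plus 2 SD of UMIs or genes. Scrublet called 0 of 11991 yak cells, so it has not worked there, and 251 cattle-yak cells (2.81%). No cell was removed as a doublet. The libraries shared 24 barcodes, 1 of them germ-like in both.

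UMIs were summed per group. Poisson, binomial and conditional ratio intervals were exact, and 3 UMIs set the floor for a count of 0. Shares were compared after thinning to 1000 UMIs. List genes needed 10 UMIs over both groups, and log2 ratios used a pseudocount of 1 CPM. Scripts (Python 3.11.15, numpy 2.4.6, scipy 1.17.1, pandas 2.3.3, scikit-learn 1.9.0, matplotlib 3.10.9) were tested on simulated data. Named were the 5 genes, up to 5 list genes per role with the most UMIs in typed cells, the stage genes, and the 3 genes most like each member. *CCNA1*, *HMGB4* and *DMRT1* were added to the stage genes, and the leading genes of groups were named, after their values were seen. The genes and lists were chosen with earlier results of these data known. *PRDM9* is not named in the annotation used, and genes without a symbol were not matched to the list.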

Additional observations from a re-analysis of the deposited data

How the results depend on the processing

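Of 906 recomputed values, 781 moved by less than their error (for counts of genes, by less than 1.5 times), 117 moved by more, and 8 log2 ratios past 1 changed sign. Of all 550 recomputed log2 ratios 39 changed sign, 16 of them within the interval of the reported ratio and 15 outside it with a reported ratio within 1. The values below are those that moved, and their cause was not tested. Settings for the stage groups, deep against typed cells, the list counts between them and the expected thinning were chosen after seeing the data. Shares of cells rise with depth by construction, and list counts fall by construction under stricter limits. No paired analysis was possible because each kind of animal had 1 library. *SPO11* rested on the fewest counts, with 50 yak and 17 cattle-yak UMIs.

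With every cell weighted equally, early-SPC held *DMC1* at 155 CPM and *RAD51AP2* at 618 CPM, late-SPC held *MEIOB* at 118 CPM, and the early-SPC to late-SPC log2 ratio of *DMC1* was 2.48. Without mitochondrial and rRNA features in the denominator, early-SPC held *MEIOB* at 736 CPM and *RAD51AP2* at 925 CPM. In SPT cells with at least 1000 UMIs *MEIOB* was at 0 CPM.

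For SYCP3-led against PIWIL1-led yak cells, equal weights gave log2 ratios of -0.037 for *SPO11* and 6.69 for *RAD51AP2*, and a pseudocount of 5 CPM gave 6.51 for *RAD51AP2*. Leiden resolution 0.5 gave 3.72 for *DMC1*, 0.38 for *MEIOB* and 6.68 for *RAD51AP2*, and resolution 2 gave 3.07 for *SPO11*, 8.12 for *DMC1* and 2.14 for *MEIOB*. For HMGB4-led against CCNA1-led cells, *DMC1* was at 5.05 with a pseudocount of 5 CPM, 4.99 with 15 components and 4.88 with a mitochondrial limit of 20%, and *MLH3* at -3.52 with a pseudocount of 5 CPM. Yak against cattle-yak SYCP3-led cells gave 0.27 for *DMC1*, -0.43 for *MEIOB* and -0.26 for *RAD51AP2* at resolution 0.5, and 0.39 for *RAD51AP2* when the cells in the top 10% of Scrublet scores were dropped.

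For PIWIL1-led against CCNA1-led yak cells, resolution 2 gave 1.90 for *SPO11*, -1.43 for *DMC1*, 0.20 for *MEIOB* and 0.43 for *MLH3*. For the same groups a pseudocount of 5 CPM gave 1.54 for *SPO11*, and a mitochondrial limit of 20% gave 0.38 for *DMC1*. For HMGB4-led against SYCP3-led cells, resolution 0.5 gave 0.73 for *DMC1*, -5.13 for *MEIOB* and -6.32 for *RAD51AP2*, and a pseudocount of 5 CPM gave -2.63 for *SPO11* and -6.28 for *RAD51AP2*. Between the libraries, PIWIL1-led cells gave -3.04 for *DMC1*, -0.63 for *MEIOB*, -1.27 for *RAD51AP2* and -0.79 for *MLH3* at resolution 2, and -0.38 for *RAD51AP2* with 15 components. DMRT1-led cells gave -0.054 for *SPO11*, 0.70 for *DMC1*, -1.70 for *MEIOB* and -0.67 for *RAD51AP2* at resolution 2, and 0.63 for *SPO11* with a pseudocount of 5 CPM. Deep against typed germ cells gave 0.13 for *SPO11*, 0.21 for *DMC1*, -0.32 for *MEIOB* and -2.06 for *RAD51AP2* with equal weights, and -3.55 for *RAD51AP2* with a pseudocount of 5 CPM.

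For yak against cattle-yak germ-like cells with those above mean plus 2 SD of log10 values left out, the log2 ratios were -0.64 for *SPO11*, 0.65 for *DMC1*, -0.33 for *MEIOB*, -0.68 for *RAD51AP2* and -0.37 for *MLH3*. Equal weights gave 1.37 for *DMC1*, 0.17 for *MEIOB*, -0.49 for *RAD51AP2* and -0.15 for *MLH3*. A mitochondrial limit of 20% gave 1.61, 0.29, -0.61 and -0.086 for the same genes. Without mitochondrial and rRNA features the ratios were 1.89 for *DMC1*, 0.84 for *MEIOB* and -0.13 for *MLH3*. A pseudocount of 5 CPM gave 1.91 for *DMC1*, and germ cells chosen by marker UMIs gave 0.70 for *MEIOB* and -0.24 for *RAD51AP2*.

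In deep yak germ cells, equal weights gave 3.44 CPM for *SPO11*, 54.7 for *MEIOB*, 8.91 for *RAD51AP2* and 45.6 for *MLH3*. Without mitochondrial and rRNA features *DMC1*, *MEIOB* and *MLH3* were at 69.9, 70.6 and 56.7 CPM, and with germ cells chosen by marker UMIs at 79.2, 80.4 and 59.7 CPM. Limits on log10 values gave 4.09 CPM for *RAD51AP2*. In somatic yak cells *MEIOB* was at 1.92 CPM with equal weights, and *MLH3* at 27.3 CPM without mitochondrial and rRNA features and 18.1 CPM at resolution 0.5. In somatic cattle-yak cells *MLH3* was at 49.9 CPM without those features, 37.8 CPM with equal weights and 29.9 CPM at resolution 2, and *RAD51AP2* at 0.127 CPM with a mitochondrial limit of 20%.

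The share of early-SPC with *DMC1* after thinning was 8.16%, and 26.5% with another seed, so a single draw sets it. Without thinning it was 38.9%, and at 2000 UMIs 38.2%. For *MEIOB* in early-SPC the shares were 23.6% at 500 UMIs, 61.8% at 2000 UMIs and 63.9% unthinned, and for *RAD51AP2* 64.7% at 2000 UMIs and 62.5% unthinned. *SPO11* in early-SPC was at 0% at 500 UMIs. In late-SPC *MEIOB* was in 5.36% at 500 UMIs and 49.2% at 2000 UMIs, and *MLH3* in 15.3% at 2000 UMIs and 9.96% unthinned. In SPT *DMC1* was in 7.59% at 500 UMIs and 34.8% at 2000 UMIs. At least 2 of the 5 genes were in 54.2% of early-SPC unthinned.

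With at least 50 UMIs the list counts were 17 higher and 2 lower for early-SPC against late-SPC, 1 and 0 for yak against cattle-yak SYCP3-led cells, and 1 and 2 for PIWIL1-led cells. At a log2 limit of 2 they were 4 lower for early-SPC against late-SPC, 17 higher and 8 lower for SYCP3-led against PIWIL1-led, 3 and 13 for HMGB4-led against CCNA1-led, 0 and 0 for the SYCP3-led and 3 and 0 for the PIWIL1-led groups between libraries. At the laxer fold limit the groups between libraries gave 13 higher and 6 lower (SYCP3-led) and 14 higher (PIWIL1-led). A pseudocount of 5 CPM left 0 and 2 lower, and equal weights 5 and 2 lower.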
